A study of Mus musculus with 4 samples.

Results

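The 9 growth factor receptor tyrosine kinases Pdgfra, Pdgfrb, Fgfr1, Fgfr2, Egfr, Igf1r, Insr, Met and Axl were followed between the protrusions and the cell bodies of migrating fibroblasts. They were taken by name, and each was represented by every probe set whose only annotated gene symbol was that receptor, which gave 30 of the 45037 non-control probe sets on the array and 9 of 18193 genes. The collagen receptor Ddr2 was left out. RNA came from NIH/3T3 cells, an established fibroblast line from mouse embryos, and the labels name no genetic change in any sample. The cells stood in medium without serum on a perforated polycarbonate membrane that carried fibronectin, a matrix protein, on its underside, and extended pseudopodia through the pores for 1 h before fixation in 0.3% formaldehyde for 10 min. Pseudopodia were scraped from the underside after the cell bodies had been wiped away, and cell bodies were collected from the upper side in the converse way, which gave 2 samples of each compartment on 1 array each. Crosslinks were reversed for 45 min at 70 C in all samples. All cells had met fibronectin, so the arrays compare compartments of stimulated cells and hold no unstimulated control.

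A typical receptor tyrosine kinase spans the plasma membrane once, binds a growth factor outside the cell, signals as a pair of receptors and phosphorylates tyrosines inside, to which adaptors, enzymes and ubiquitin ligases attach. The receptors are made on ribosomes bound to the endoplasmic reticulum and reach the surface through the Golgi. In fibroblasts the platelet-derived growth factor receptors Pdgfra and Pdgfrb are the classic receptors of directed migration, Fgfr1 and Fgfr2 bind fibroblast growth factors, Igf1r and Insr bind insulin-like growth factors and insulin, Egfr binds epidermal growth factor and its relatives, Met binds hepatocyte growth factor, and Axl binds Gas6.

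Markers of the cell line were read on the same arrays. Of 14 fibroblast markers, 13 were on the array and 10 passed the filter on low values described below, with Vim, Col1a1, Col1a2 and S100a4 bright, whereas Thy1 and Lum lay on all 4 arrays at 20, the lowest value of the deposited scale. The summed intensity of the fibroblast markers was 50298 and 51959 in pseudopodia and 80875 and 71569 in cell bodies. Of the 10 that passed, 4 were called lower in the test described below. Over all tested genes 8.69% were called lower and 5.92% higher. The endothelial markers Pecam1, Emcn, Tie1 and Vwf lay at 20 on all 4 arrays, with 0 of 7 above the filter. Of 9 haematopoietic markers 5 passed, with a summed intensity of 488 and 512 in pseudopodia against 496 and 576 in cell bodies, and Itgam was at 20 throughout. Of 12 epithelial markers 7 passed, Krt14 at 1835 to 2665 being the brightest, and they summed to 3073 and 3075 in pseudopodia against 3402 and 4086 in cell bodies; 0 of these markers of other cell types were called. For the Actb control, signal at the 3' end over the 5' end, in log2, was 0.56 and 0.65 in pseudopodia and 0.37 and 0.36 in cell bodies, and for Gapdh -0.07 to -0.10 on all 4 arrays, a measure of RNA integrity whose part in the differences below was not tested. The pseudopodia arrays were both scanned before the cell body arrays, so that scan order and compartment cannot be told apart.

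Messages of 4 of the 9 receptors were less abundant in pseudopodia than in cell bodies, and 0 were more abundant. Axl, Fgfr1, Pdgfrb and Pdgfra fell 2.77-fold, 2.96-fold, 2.31-fold and 2.27-fold, at an adjusted p under the threshold of 0.05. Igf1r was 1.46-fold lower without passing the test, and Met, Insr, Egfr and Fgfr2 differed by less than the spread of their arrays. The test was limma on log2(intensity + 1) over the 11320 genes whose brightest probe set had a mean of at least 42.0, where 8.69% of genes were called lower and 5.92% higher. The median difference of the 9 receptors was -0.54 on the log2 scale, beside -0.0020 for all tested genes. On 5 of the 9 both pseudopodia arrays lay under both cell body arrays, and on 0 above them, where 31.4% of all tested genes lay under without overlap and 29.5% above. An array reads the share of a message in the RNA applied. Fewer copies in each protrusion, fewer protrusions that hold the message and a larger share of other messages therefore cannot be told apart. The samples are called independent by the submitters but nothing ties them to separate cultures, so the p-values measure only how these samples spread, and that spread may be technical.

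**Figure D1:**
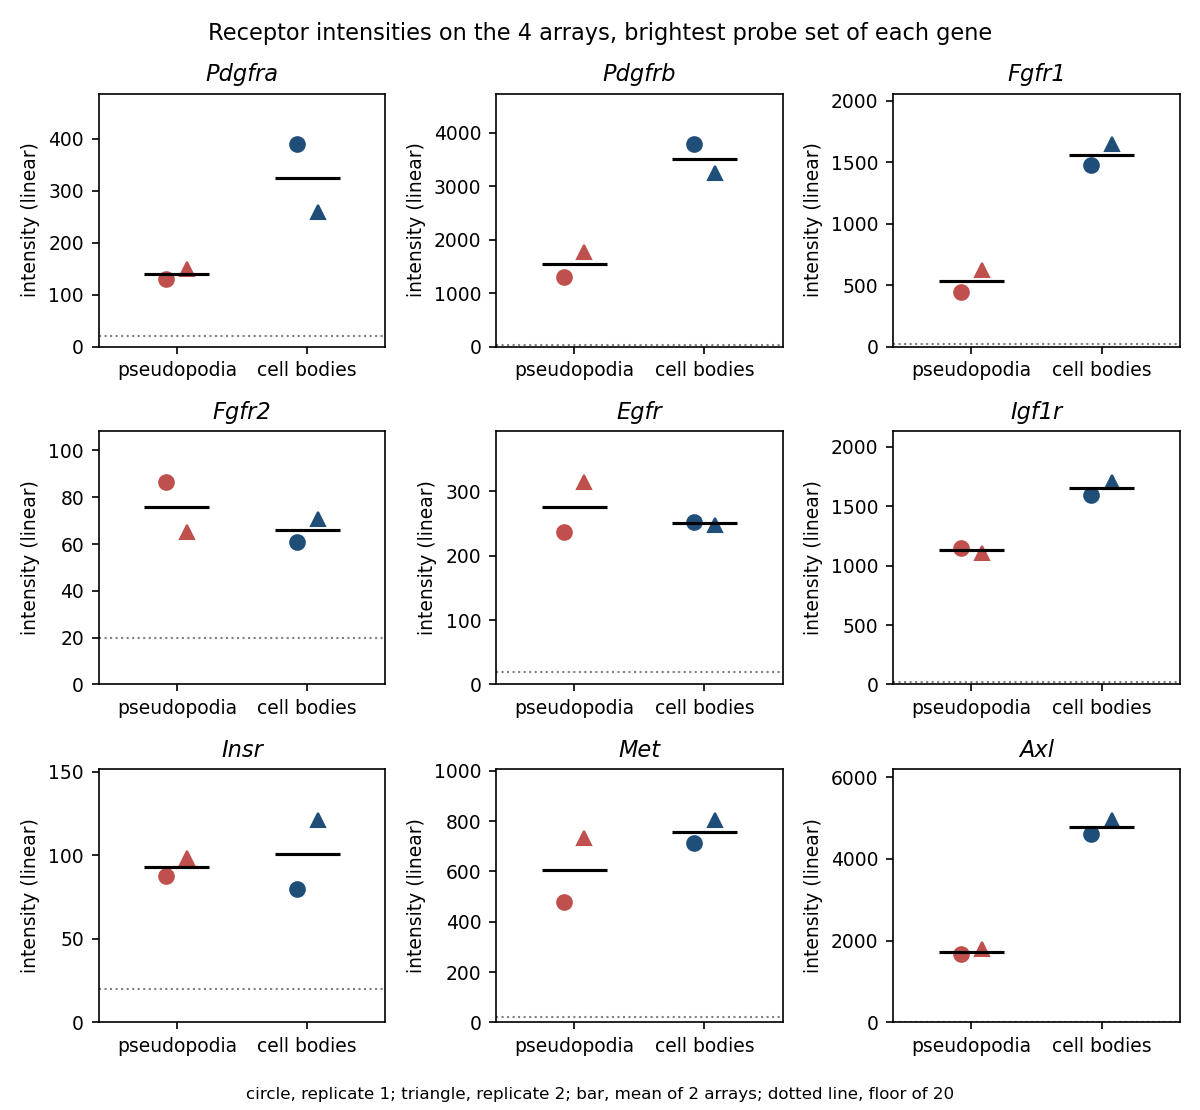
Linear intensities of the brightest probe set of each receptor on the 2 pseudopodia arrays (red) and the 2 cell body arrays (blue); circles are replicate 1, triangles replicate 2, bars the mean of 2 arrays and the dotted line the floor of 20, with a separate axis from 0 for each gene. Both pseudopodia arrays lie under both cell body arrays for Pdgfra, Pdgfrb, Fgfr1, Igf1r and Axl, and the compartments overlap for Fgfr2, Egfr, Insr and Met.

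Axl, a receptor for the vitamin K-dependent ligand Gas6, had the smallest spread among the receptors that fell. Its intensity was 1667 and 1787 in pseudopodia and 4605 and 4954 in cell bodies, which is 1727 ± 85.2 against 4780 ± 247 (SD, n = 2). The compartments were far apart on this probe set: among the 4 ways of setting a pseudopodia array against a cell body array, the fold ran from 2.58 to 2.97. The log2 difference was -1.47 (SE 0.13, adjusted p = 0.0166), and 1.74% of all tested genes lay lower. The other Axl probe set, 1438621_x_at, was at the floor on all 4 arrays and gives no second reading.

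Fgfr1, the main fibroblast growth factor receptor of mesenchymal cells, had 3 probe sets, and all of them read lower on both pseudopodia arrays than on either cell body array. The brightest, 1424050_s_at, read 445 and 626 in pseudopodia and 1479 and 1649 in cell bodies, a log2 difference of -1.56 (SE 0.21, adjusted p = 0.0183) with 1.29% of tested genes lower still. A second, 1425911_a_at, read 143 and 141 against 584 and 700.4. That is a 4.48-fold fall, the deepest among the 17 receptor probe sets that passed the filter, at -2.16 on the log2 scale (SE 0.16, adjusted p = 0.0241 in the fit over probe sets). The third, 1436551_at, was dim at 27.8 and 44.1 against 74.3 and 65.7, passed the filter through its cell body level, and had a difference of -0.98 (SE 0.26, adjusted p = 0.0809 in that fit).

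Pdgfrb, which binds PDGF-BB and drives fibroblast migration, read lower in pseudopodia at both of its probe sets. The brighter, 1436970_a_at, read 1309.9 and 1762 in pseudopodia and 3788 and 3247 in cell bodies. The log2 difference was -1.21 (SE 0.20, adjusted p = 0.0252), with folds of 1.84 to 2.89 over the 4 array pairs. The other, 1417148_at, read 311 and 391 against 1389 and 1073, a 3.49-fold fall (log2 difference -1.80, SE 0.21, adjusted p = 0.0241 in the fit over probe sets).

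Pdgfra, the receptor of PDGF-AA and a common mesenchymal marker, had an intensity of 131 and 149 in pseudopodia and 390.03 and 259 in cell bodies at its brightest probe set, 1421917_at. The cell body arrays were unequal here, 0.59 apart on the log2 scale, yet both stood above both pseudopodia arrays. The log2 difference was -1.18 (SE 0.23, adjusted p = 0.0372). The dimmer 1421916_at read 39.9 and 44.0 against 61.7 and 64.5 and passed the filter only through its cell body level, with a difference of -0.58 (SE 0.15, adjusted p = 0.0736 in the fit over probe sets). The third, 1438946_at, stayed under the filter at 22.5 and 20.6 against 46.8 and 41.1. The 2 dimmer probe sets were close to the floor in pseudopodia, so the call rests on 1421917_at alone.

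Promoter windows of Pdgfra and Axl, which were both called lower, are shown with GC boxes (GGGCGG on either strand) in capitals. This is the binding motif of Sp1-type factors found at many promoters without a TATA box. The windows are from RefSeq on GRCm38.p6 and run from 250 bases before to 50 after a transcript start. They are chr5:75152001-75152300 on the plus strand for Pdgfra and chr7:25788684-25788983 on the minus strand for Axl. The Pdgfra window lies wholly inside its annotated gene, which starts at 75151322, so it does not cover the annotated 5' end. The Axl window overlaps the 5' end of its gene. A window was taken for 6 of the 9 receptors. Pdgfrb, Fgfr1 and Insr were not among these. The search left out 1 chromosome, which is not given as the reason for every one of these absences.
Pdgfra: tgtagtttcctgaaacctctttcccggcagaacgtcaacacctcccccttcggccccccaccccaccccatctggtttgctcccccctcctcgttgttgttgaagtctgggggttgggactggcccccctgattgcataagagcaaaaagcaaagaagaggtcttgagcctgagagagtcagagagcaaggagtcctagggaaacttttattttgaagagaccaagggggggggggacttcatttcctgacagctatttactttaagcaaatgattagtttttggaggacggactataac
Axl: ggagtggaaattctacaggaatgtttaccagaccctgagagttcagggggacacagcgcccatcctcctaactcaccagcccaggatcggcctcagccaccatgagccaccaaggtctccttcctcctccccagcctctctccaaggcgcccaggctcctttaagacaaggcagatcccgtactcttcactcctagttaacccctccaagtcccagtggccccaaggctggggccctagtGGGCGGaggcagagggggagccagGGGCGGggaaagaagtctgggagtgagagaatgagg
The Axl window held 2 GC boxes at a GC content of 60.3%, and the Pdgfra window held 0 at 51%. Among receptors that were not called, the window of Met held 3, that of Igf1r 2, that of Egfr 1 and that of Fgfr2 0. The Met window, too, lies wholly inside its annotated gene, which starts at 17463349. Of 32851 promoter windows of this length, 35.7% held at least 1. The matches describe the letters of these windows only.

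Igf1r, the receptor of insulin-like growth factors and a relative of Insr, was measured by 5 probe sets that gave different sizes. The brightest, 1426565_at, read 1152 and 1109.7 in pseudopodia and 1595 and 1703 in cell bodies, without overlap. Its difference of -0.54 (SE 0.13) missed the threshold at adjusted p = 0.0568. Next in brightness, 1452982_at read 364 and 560.1 against 548 and 535 and overlapped (difference -0.26, SE 0.24), and 1428967_at read 270.5 and 424 against 486 and 569.9 without overlap (difference -0.64, SE 0.26). The dim 1446303_at was the exception, at 34.0 and 60.2 against 131 and 164, a 3.19-fold fall that passed in the fit over probe sets (log2 difference -1.67, SE 0.31, adjusted p = 0.0397). The last, 1452108_at, lay under the filter at 26.8 and 23.5 against 64.0 and 57.1. When the log2 values of all 5 were averaged, Igf1r passed at -0.87 (adjusted p = 0.0317).

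Insr, the insulin receptor, read 87.7 and 98.7 in pseudopodia and 79.8 and 121 in cell bodies. The cell body values enclosed the pseudopodia values, and the difference of -0.08 (adjusted p = 0.854) had a 95% interval from -0.69 to 0.53. Its other 2 probe sets lay under the filter, at 20 to 34.2. Met, the receptor of hepatocyte growth factor, read 478 and 733 in pseudopodia and 712 and 805 in cell bodies, so that 1 pseudopodia array stood within the cell body range. The difference of -0.35 (SE 0.24, adjusted p = 0.384) spanned -0.97 to 0.27 in its 95% interval. A second Met probe set, 1422990_at, was at the floor on both pseudopodia arrays and at 25.6 and 25.4 in cell bodies, at least 1.28-fold lower in pseudopodia at a level too dim to pass the filter.

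Egfr, the epidermal growth factor receptor, had 7 probe sets, of which 2 passed the filter and 2 lay at the floor on all 4 arrays. The brightest, 1460420_a_at, read 236 and 314 in pseudopodia and 253 and 248 in cell bodies, where the pseudopodia arrays lay on either side of the cell body arrays. The difference was 0.12 (SE 0.18, adjusted p = 0.700), with a 95% interval of -0.35 to 0.59. At 1432647_at the values were 65.3 and 74.5 against 78.6 and 82.5, a difference of -0.20 (SE 0.15, adjusted p = 0.440 in the fit over probe sets). The other 3 read 20 to 53.4, and 1 of them, 1457563_at, was the only receptor probe set that read higher on both pseudopodia arrays. It stood at 24.6 and 27.6 against 20 and 21.4, next to the floor. Another, 1451530_at, read lower on both pseudopodia arrays, at 22.2 and 21.3 against 31.1 and 24.9, also close to the floor. The brighter 1432647_at above likewise read lower on both. Fgfr2, the fibroblast growth factor receptor better known from epithelia and bone, read 86.5 and 65.0 in pseudopodia and 61.1 and 70.6 in cell bodies, with overlap. Its difference was 0.19 (SE 0.19, adjusted p = 0.569, 95% interval -0.31 to 0.69). The other 2 Fgfr2 probe sets lay under the filter, 1 of them at the floor on all 4 arrays.

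**Figure D2:**
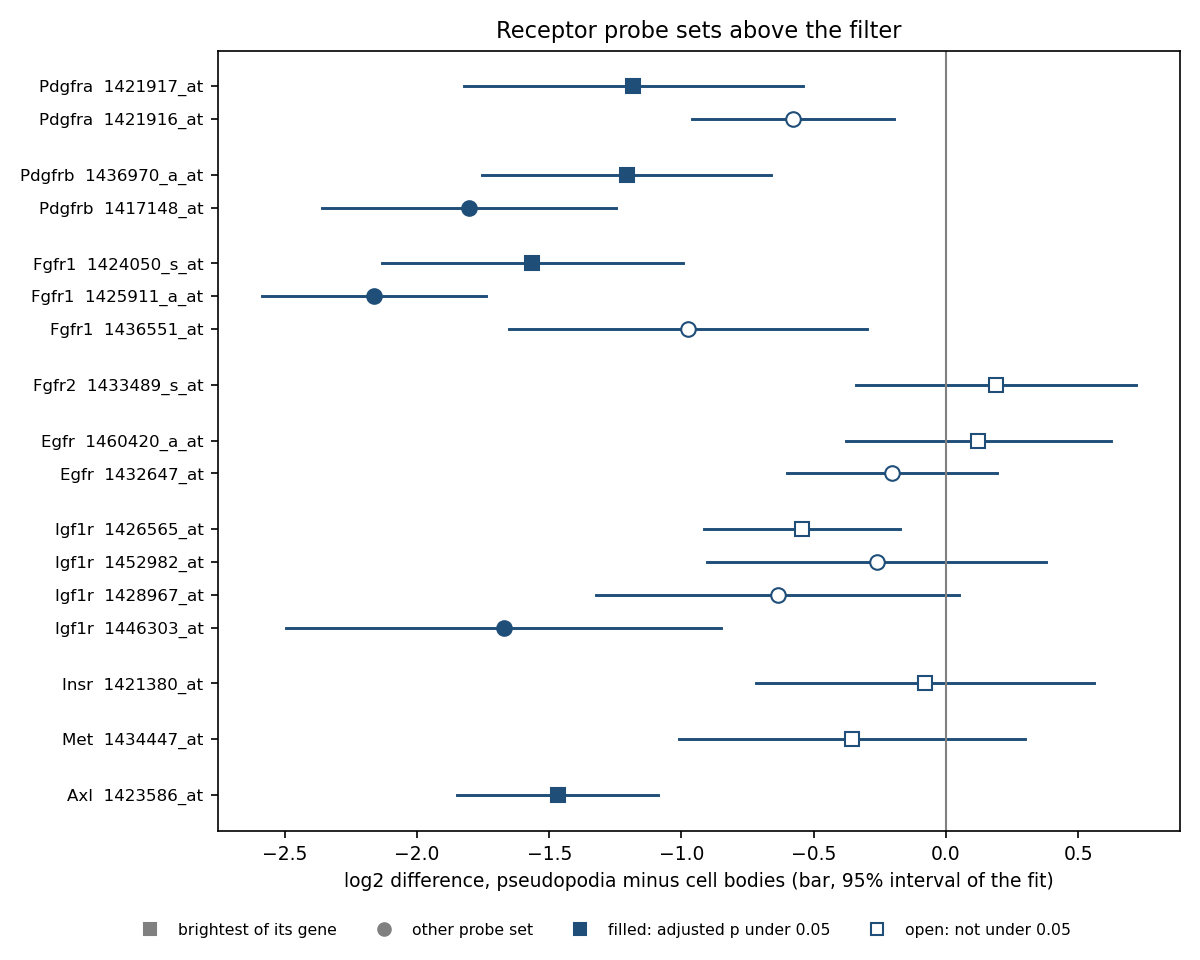
Log2 difference of pseudopodia minus cell bodies for the 17 receptor probe sets above the filter, with the 95% interval of the fit over all probe sets; squares are the brightest probe set of a gene, circles its others, and filled symbols passed at an adjusted p of 0.05. The 7 filled symbols belong to Pdgfra, Pdgfrb, Fgfr1, Igf1r and Axl and run from -2.16 to -1.18.

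Over all 30 probe sets, 17 passed the filter and 7 of these were called lower and 0 higher, where 7.44% of the 22519 probe sets tested were called lower and 4.3% higher. Of the 17 above the filter, both pseudopodia arrays read under both cell body arrays on 12 and above them on 0. Among all tested probe sets 30.9% read lower without overlap and 28.7% higher. The dim 1421916_at of Pdgfra and 1436551_at of Fgfr1 are among the 12. Both passed only through their cell body level, which favours a lower reading. Of the 15 that reached the filter in both compartments 10 read lower without overlap. The matching share over all probe sets was not computed. Whether probe sets of 1 receptor differed among themselves was tested on their ratio within each array. The brightest Pdgfrb probe set showed a smaller loss than the other by 0.60 (95% interval 0.21 to 0.98), and the brightest of Igf1r a smaller loss than 1446303_at by 1.13 (0.20 to 2.06). The third pair, the brightest Fgfr1 probe set against 1436551_at, gives no reading of unequal loss, because the latter was near the floor in pseudopodia and passed only through cell bodies. These 3 of 8 receptor pairs had an unadjusted p under 0.05, while limma called 0 of 8065 such pairs over all genes after adjustment, with 21.4% at an unadjusted p under 0.05. The size of a receptor's loss is therefore uncertain where its probe sets differ, and the stretch of transcript that each probe set reads was not used here.

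**Figure D3:**
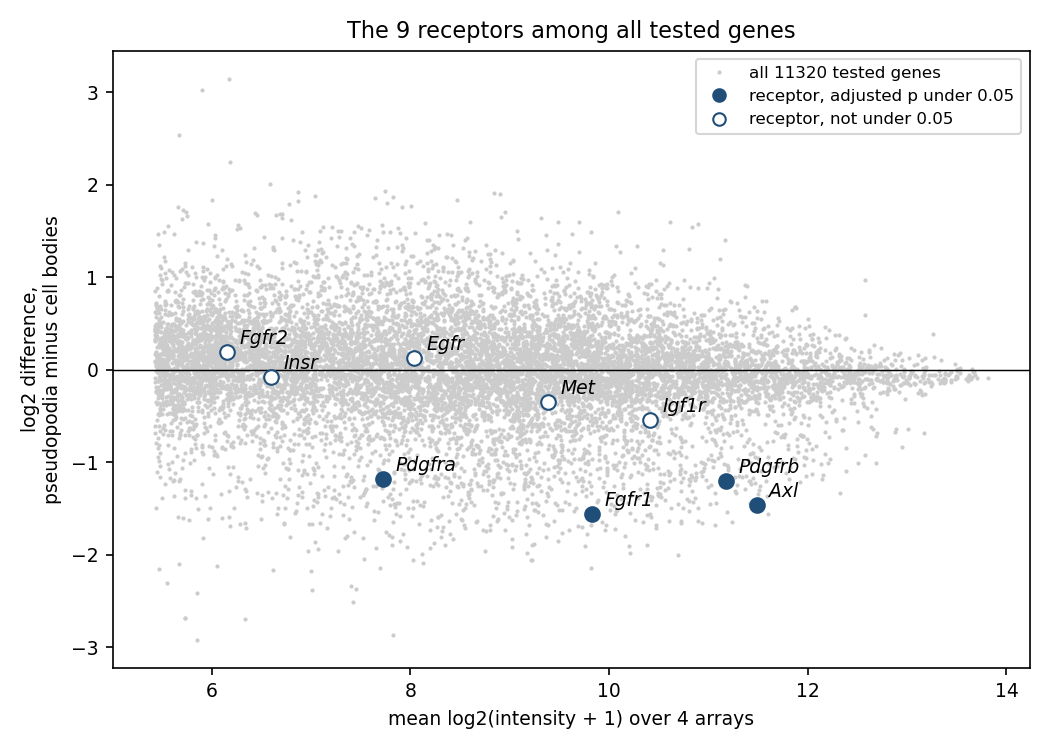
Mean log2(intensity + 1) over the 4 arrays against the log2 difference of pseudopodia minus cell bodies for all 11320 tested genes (grey) and the 9 receptors (circles, filled where adjusted p was under 0.05). Axl, Fgfr1, Pdgfrb and Pdgfra lie at -1.47, -1.56, -1.21 and -1.18, and the other 5 receptors lie between -0.54 and 0.19.

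The calls need all 4 arrays. Leaving out any single array, limma called none of the 9 receptors (0, as for all tested genes). The differences then ran from -1.42 to -1.52 for Axl, -1.32 to -1.81 for Fgfr1, -0.99 to -1.42 for Pdgfrb and -0.89 to -1.48 for Pdgfra. Their sign could not turn, because both pseudopodia arrays lay under both cell body arrays, so only the change in size is informative. Without the filter on low values, over 18193 genes, limma also called 0 receptors. Of the 9, 5 had an unadjusted p under 0.05, beside 3844 of the 18193 genes. The adjusted p of these 5 receptors ran from 0.0690 for Axl to 0.197 for Pdgfra. Met moved from -0.35 to -0.05 without pseudopodia replicate 1, and the sign of Fgfr2, Egfr and Insr turned with the array left out. Averaging all probe sets of a gene brought Axl to -0.73, because its second probe set was at the floor throughout.

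Among the other receptor tyrosine kinases, losses were also the only calls. Of 41 named, 39 were on the array and 19 were tested. Of these, 7 were lower in pseudopodia and 0 higher, and the median log2 difference was -0.30. Beside this list and those that follow, 8.69% of all tested genes were called lower and 5.92% higher. Their median was -0.0020. Ror2, a receptor for Wnt5a, fell by 1.82 on the log2 scale (SE 0.17), the ephrin receptor Ephb4 by 1.80 (SE 0.13) and Erbb2, the co-receptor of the Egfr family, by 1.77 (SE 0.14), each at adjusted p = 0.0166. Ddr1, a collagen receptor and the brightest of the list, fell by 1.30 (SE 0.21, adjusted p = 0.0244). Its 7 other probe sets above the filter had differences below 0 of very unequal size, from -2.27 to -0.03. The second Ror2 probe set above the filter had a difference of 0.10. Ephb4 and Erbb2 had no other probe set above it.

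Of 23 ligands 9 were tested and 0 were called, with 3 at an unadjusted p under 0.05 in the same limma fit and a median of -0.12. Pdgfc, the brightest, had a difference of -0.12 (SE 0.16, adjusted p = 0.650). Of 11 tested coreceptors and ligand-binding proteins 3 fell and 0 rose, with a median of -0.60. Lrp1, an endocytic receptor that associates with Pdgfrb, fell by 1.57 (SE 0.15), and its other probe set had a difference of -1.47. The secreted binding proteins Igfbp7 and Igfbp6 fell by 1.13 (SE 0.15) and 1.00 (SE 0.14), the second probe set of Igfbp7 standing at 0.10. Igfbp4, the brightest of the list, had a difference of -0.11 (adjusted p = 0.643).

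In the lists of adaptors and of signalling effectors, 14.3% each were called in either direction, next to 14.6% of all tested genes. These calls were all higher, where 5.92% of all tested genes were called higher and 8.69% lower. With 3 calls in each list, whether either list stands apart was not tested. Of 21 tested adaptors and docking proteins 3 rose and 0 fell, and the list median was -0.07. Sos1, the exchange factor that activates Ras, read 167 on both pseudopodia arrays against 91.8 and 69.0 in cell bodies, a rise of 1.06 (SE 0.18, adjusted p = 0.0268), although its second probe set stood at -0.26. The docking protein Gab2 rose by 0.66 (SE 0.14) and Stam, an adaptor of receptor sorting on endosomes, by 0.59 (SE 0.13); their other probe sets had differences of 0.01 to 0.21 and 0.04. Grb10, which binds Igf1r and Insr and was the brightest of the list, had a difference of -0.17 at that probe set and down to -2.09 at another. Of 21 tested signalling effectors 3 rose and 0 fell, with a median of -0.02. The kinase Rps6ka3, a target of ERK, rose by 1.20 (SE 0.21), the Src-family kinase Yes1 by 0.80 (SE 0.13) and Pik3ca, the catalytic subunit of PI 3-kinase, by 0.75 (SE 0.15). The other probe sets of Pik3ca ran from -0.16 to 1.76 and those of Rps6ka3 from 0.34 to 0.69. Akt1, the brightest, had a difference of -0.16 (adjusted p = 0.465).

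Of 22 tested negative regulators 5 were lower and 2 higher, with a median of -0.26. Over all tested genes 8.69% were called lower and 5.92% higher. Lrig1, a membrane protein that promotes receptor degradation, fell by 1.79 (SE 0.23, adjusted p = 0.0178), with other probe sets at -1.43 and 0.18. Il17rd, a membrane-spanning inhibitor of fibroblast growth factor signalling, fell by 1.69 (SE 0.13), from 134 and 125 to 40.9 and 37.8, and passed the filter only through its cell body level. Also lower was the receptor phosphatase Ptprf, which fell by 1.09 (SE 0.23). Socs3, the brightest of the list, fell by 0.81 (SE 0.15) and Dusp4, a phosphatase of MAP kinases, by 0.71 (SE 0.14). Ptpn2, a non-receptor phosphatase, rose from 469 and 444 in cell bodies to 968 and 1199 in pseudopodia, by 1.24 (SE 0.16, adjusted p = 0.0183). Cd2ap, an adaptor of receptor endocytosis, rose by 1.15 (SE 0.13, adjusted p = 0.0166). The second Ptpn2 probe set stood at 1.13 and the other Cd2ap probe sets at 1.64 and 1.80.

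**Figure D4:**
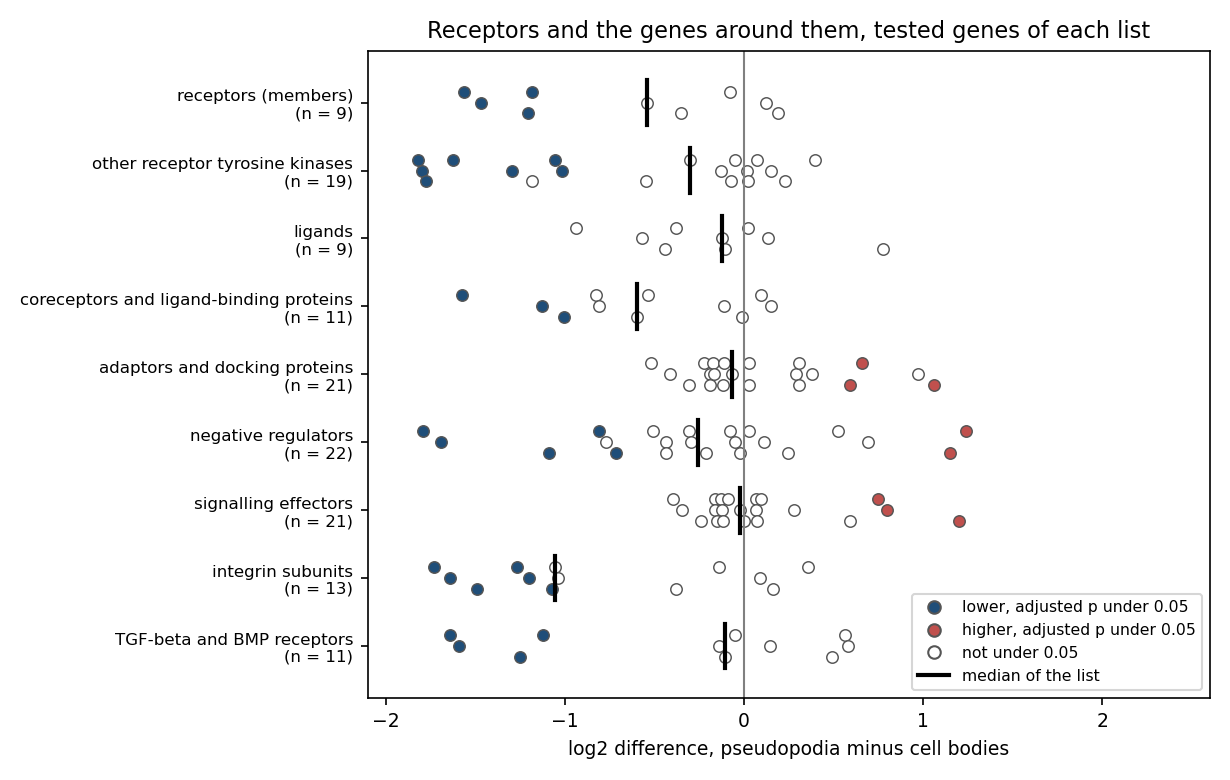
Log2 difference of pseudopodia minus cell bodies for the tested genes of each list, 1 point a gene, blue where lower and red where higher at an adjusted p under 0.05, with the list median as a black bar. The receptor lists hold blue points and no red ones, the adaptors and effectors hold 3 red points each and no blue ones, and the negative regulators hold both.

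Other single-pass surface receptors of these cells gave counts of the same order, and the lists were not tested against each other. Of 13 tested integrin subunits 6 fell and 0 rose, with a median of -1.05, led by Itga5 at -1.73 (SE 0.16), Itga3 at -1.64 (SE 0.15) and Itgb7 at -1.49 (SE 0.24). The brightest subunit, Itgb5, fell by 1.20 (SE 0.19). Of 11 tested TGF-beta and BMP receptors 4 fell and 0 rose, with a median of -0.11, led by Acvr1 at -1.64 (SE 0.18), Acvr1b at -1.59 (SE 0.17) and Tgfbr3 at -1.25 (SE 0.14). The brightest, Tgfbr2, fell by 1.12 (SE 0.21). The other Tgfbr2 probe set above the filter stood at -0.31 and that of Acvr1 at -2.18.

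The genes whose 4 values ran closest to a receptor were found by the root mean square distance of log2 values, each centred on its own mean, over the 4 arrays. For Axl these were Tnfsf9 at a distance of 0.015 and Znrf3 at 0.020, for Fgfr1 Spns1 at 0.026 and Kcnn4 at 0.048, for Pdgfrb Ext2 at 0.016 and Atp6v0a1 at 0.017, and for Pdgfra Mxra8 at 0.025 and Cyb561a3 at 0.041. The nearest to Igf1r were Fbxl14 and Wnk4, to Met Acsf2 and Kdm6b, to Insr Chrm3 and Mical2, to Egfr Eln and Klf7, and to Fgfr2 1700086O06Rik and Trim30d. With 4 arrays, many of 11320 genes lie close to any pattern.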

How the data were processed

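The authors deposited probe set intensities on a linear scale for 4 Mouse430_2 arrays, per the array records, in 1 table. The sources used here do not state how probes were summarized and scaled, or with which software. Each column bottoms out: the lowest value was 20 on each array, shared by 30.5% to 34.8% of non-control probe sets, and medians ran from 40.5 to 45.6, so no scaling was added. The array records list 1 chip lot and 1 scan day. Here, log2(intensity + 1) was computed and 64 control probe sets were left out. Of 45037 probe sets, 34945 carried 1 gene symbol, 932 several and 9160 none in the platform annotation; 0 of the 932 held a receptor. For each gene the brightest 1-symbol probe set was taken, and means under the median of all probe sets (log2 5.42, intensity 42.0) were left out. Pseudopodia were compared with cell bodies in limma 3.58.1 under R 4.3.3 (lmFit and eBayes, two-sided, Benjamini-Hochberg, threshold 0.05, 2 residual and 2.90 prior degrees of freedom) over genes, over probe sets, and over within-array ratios of probe sets of 1 gene; the code was tested on simulated data. A permutation of 2 against 2 arrays cannot give a p under 0.333. Folds are antilogs on the log2(intensity + 1) scale and understate dim genes. The number of arrays limits the precision. The named genes of each list were the up to 3 called genes with the largest difference in each direction and the brightest; Dusp4 was added after its value was seen. The receptors, lists and tests were chosen with earlier results of these data known. Alternatives were no filter, a filter at the 75th percentile, quantile normalization, median centring, a pseudocount of 20, an intensity trend, the replicate number as a block, each array left out, the mean of a gene's probe sets, and leaving out _x_at and _s_at probe sets.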

Additional observations from a re-analysis of the deposited data

How the results depend on the processing

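Without a filter on low values limma called 0 of 9 receptor genes, 0 of 30 receptor probe sets, 0 of 175 genes of the other lists and 2 genes in all, with 5, 13, 44 and 3844 at an unadjusted p under 0.05. With each array left out in turn the counts were 0 to 0 for receptor genes, receptor probe sets, list genes and all genes, with 5 to 6, 8 to 12, 43 to 50 and 2797 to 2891 at an unadjusted p under 0.05. Receptor probe set pairs stood at 0 calls under each setting run, with 1 to 4 at an unadjusted p under 0.05. An intensity trend raised the calls over all genes from 1654 to 2564. The receptor genes called were 4 or 5 under the other settings, and Igf1r was the one added, at an adjusted p of 0.0165 with the stricter filter, which dropped Pdgfra, 0.0430 with a pseudocount of 20, 0.0101 with the trend and 0.0317 with probe sets averaged. Signs turned for receptors that were not called: with single arrays left out Fgfr2 ran from -0.015 to 0.39, Egfr from -0.082 to 0.33 and Insr from -0.38 to 0.22, Fgfr2 and Insr (0.0043) turning without pseudopodia replicate 1, Egfr without pseudopodia replicate 2 and Insr without cell body replicate 2. With the replicate number as a block, which the labels do not tie to a shared culture, limma called 4 receptor genes, 7 receptor probe sets and 2202 genes in all, and same-numbered arrays deviated from their group means with a correlation of 0.34 across genes. Except as stated, the causes were not tested.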
